A study of Mus musculus with 8 samples.

Results

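The genes described here are the mouse ATP-binding cassette (ABC) transporter genes outside the ABCC subfamily. They were taken as every gene whose symbol begins with Abca, Abcb, Abcd, Abce, Abcf or Abcg followed by a digit, and 37 of the 18691 genes in the deposited files met this rule. The set held 14 ABCA, 9 ABCB, 4 ABCD, 1 ABCE, 3 ABCF and 6 ABCG genes. They were measured by sequencing of polyadenylated RNA from the epididymal fat pad, a white adipose depot, of C57BL/6J mice at 16 weeks of age. There were 4 libraries labelled wild type (WT), numbered 1, 2, 3 and 4, and 4 labelled Mrp4 knockout (Mrp4-/-), numbered 1, 2, 4 and 5. The labels name no drug, diet or second allele for either group, and they give neither the construction of the deleted allele nor the tissues that lack it. Mrp4 is the ABCC transporter encoded by Abcc4, which exports cyclic nucleotides and prostanoids, so the question is whether the other ABC genes differ in level between the 2 labels. Whether each library is from its own mouse is not stated in the labels, so a p-value here reflects only how much these libraries vary, which may be technical.

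ABC proteins share a pair of nucleotide-binding domains that bind and hydrolyse ATP, and most of them couple this to moving a substrate across a membrane. ABCA and ABCG proteins mostly move lipids and sterols, ABCB proteins act at the plasma membrane, the bile canaliculus, the lysosome and the inner mitochondrial membrane, and ABCD proteins take fatty acyl groups into peroxisomes. ABCE and ABCF proteins have no membrane domain and act on ribosomes. In adipose tissue the family is known for cholesterol efflux from adipocytes and macrophages and for very long chain fatty acid import by an ABCD protein that is abundant in fat cells.

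Levels are the deposited FPKM, which are scaled by transcript length and by depth and so can be compared between genes. Differences are log2 fold changes of the knockout label minus WT from edgeR's quasi-likelihood test, given with a standard error (SE), with Benjamini-Hochberg adjustment over 14257 genes and a threshold of 0.05 on the adjusted p. The libraries held 14.1e6 to 14.7e6 expected counts each. Library values are listed in the order WT 1, 2, 3, 4 and then knockout label 1, 2, 4, 5. The level of the targeted gene did not separate the labels, as Abcc4 (gene 239273) stood at 3.59, 3.33, 3.81 and 3.33 FPKM in WT and at 3.54, 3.68, 3.89 and 3.31 FPKM under the knockout label. The Abcc4 groups overlapped throughout, with a log2 fold change of -0.05 ± 0.08 (SE; 95% interval -0.23 to 0.13; adjusted p = 0.692; exact two-sided permutation p = 0.571, where 0.0286 is the smallest this design allows). The files give 1 value per gene, so a deletion that leaves a transcript in place would not be seen in this number, and the groups are called by their labels throughout.

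Marker lists of several cell types held called genes, beside 10.2% of all tested genes called higher and 8.05% lower. Of all 14257 tested genes 7063 had positive and 7194 negative estimates. All 20 hepatocyte markers rose, and their summed level was 50.4 to 127 FPKM in WT and 895 to 1600 FPKM under the knockout label. Endothelial markers summed to 382 to 594 and 637 to 680 FPKM with 5 of 11 called higher, and macrophage markers to 810 to 1010 and 967 to 1220 FPKM with 5 of 15 called higher. The macrophage sums overlapped, and 10 of the 15 macrophage markers were not called. The 10 adipocyte markers, led by Adipoq, Plin1, Cidec and Lep, were all present and summed to 28700 to 32700 FPKM in WT and 23200 to 27800 FPKM under the knockout label. They went both ways, with 3 called lower, 1 (Lep) higher and 6 not called. Of 7 mesothelial markers all had negative estimates and 1 was called lower (162 to 260 against 60.2 to 164 FPKM in sum), and all 6 tested T and NK cell markers had positive estimates with 1 called higher (18.6 to 25.3 against 31.8 to 40.1 FPKM). The mesothelial sums overlapped. Fibroblast and progenitor markers went both ways, with 3 of 9 called higher and 1 lower. Of 4 tested Schwann cell markers 1 was called higher and 2 lower. The epididymis marker Crisp1 was at 13.5 FPKM in WT 2, and the epididymis list summed to at most 0.74 FPKM in each other library. In bulk tissue, fewer cells of a type and less RNA per cell cannot be told apart.

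Of the 37 genes, 33 passed the filter on low counts. The 4 that did not were Abca13, Abca14, Abca16 and Abca17, with 0 to 4 counts in any library and at most 0.06 FPKM. Of the tested members 9 rose, 4 fell and 20 did not pass, which is 39.4% of them, beside 18.3% of all tested genes. Over all genes 10.2% were called higher and 8.05% lower. The median log2 fold change was 0.09 for the members and -0.0 for all genes. With library size alone as scaling, 9 members rose and 2 fell, the median of all genes was 0.07, and the share of all calls that were higher went from 55.9% to 74.1%. Abcb11, Abcg5 and Abcg8 passed the filter only through the libraries of the knockout label, so they had to differ to be tested, and the members' share is a description. The members that rose were Abca3, Abca5, Abca8b, Abcb4, Abcb11, Abcg1, Abcg3, Abcg5 and Abcg8. Those that fell were Abca2, Abcb8, Abcb10 and Abce1. With 1 library left out, the number that rose was between 2 and 9 and the number that fell between 1 and 5: it was 2 and 2 without WT 1, 2 and 3 without WT 3, 3 and 1 without WT 4, 4 and 2 without knockout label 1 or 2, 2 and 2 without knockout label 4, and 4 and 3 without knockout label 5.

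**Figure D1:**
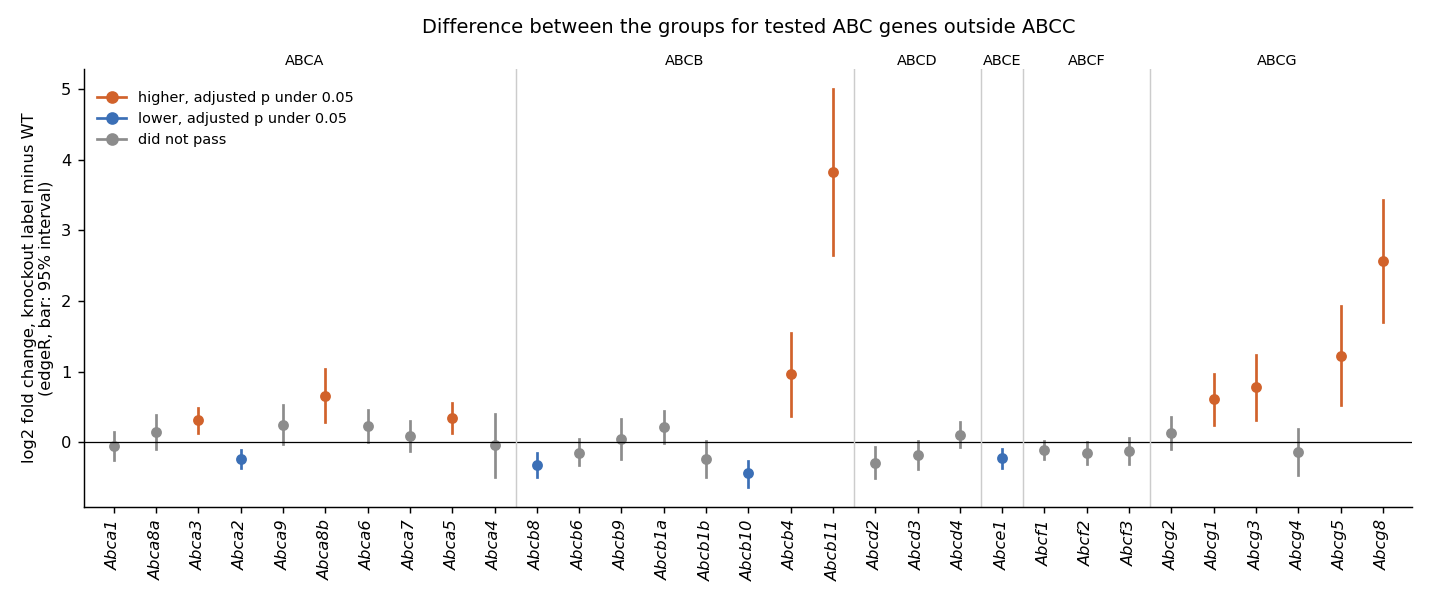
Difference between the groups for 31 of the tested members, grouped by subfamily and ordered by level within each. The vertical axis is the log2 fold change (knockout label minus WT, edgeR), points are estimates and bars 95% intervals. Orange marks the 9 members that rose, blue the 4 that fell and grey 18 that did not pass. Abcb11 at 3.83 and Abcg8 at 2.57 lie far above the other members, while the falls reach no lower than -0.44.

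The counts by subfamily are a description, beside 10.2% of all genes called higher and 8.05% lower. In ABCG, 4 of 6 tested members rose and 0 fell, with a median log2 fold change of 0.69, but Abcg5 and Abcg8 were among the 4 and had to be higher under the knockout label to be tested. In ABCA, 3 of 10 rose and 1 fell (median 0.19), and in ABCB 2 of 9 rose and 2 fell (median -0.15). Abcb11, 1 of the ABCB members that rose, also had to be higher under the knockout label to be tested. The single ABCE gene fell, and no ABCD gene (4 tested, median -0.04) or ABCF gene (3 tested, median -0.12) passed in edgeR at an adjusted p under 0.05. At an unadjusted p under 0.05 there were 1 and 0 such genes, DESeq2 called 1 and 0, and limma-voom 0 and 0. Leaving out 1 library gave 1 to 4 ABCG calls (1 without WT 1, WT 3 or knockout label 4, and 2 without WT 4 or knockout label 1, 2 or 5), and 0 or 1 ABCA calls in every such fit but the one without WT 2. ABCB had 2 calls without WT 4 or knockout label 4 and 3 to 5 in the other such fits. The difference between subfamilies was not tested.

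The summed level of the members was nearly equal under both labels, at 512 ± 10.8 FPKM in WT and 510 ± 12.4 FPKM under the knockout label (SD, n = 4; ratio 0.995). ABCD held the largest share, 36.9% in WT and 33.3% under the knockout label, followed by ABCA at 29.1% and 32.8%. The ABCG sum was 18.5, 25.4, 21.4 and 20.1 FPKM in WT and 28.0, 26.5, 31.2 and 29.7 FPKM under the knockout label, a ratio of 1.35 with no overlap between the groups. The ABCB sum was 69.6, 67.5, 65.4 and 64.9 FPKM in WT and 62.9, 62.4, 62.9 and 64.6 FPKM under the knockout label, a ratio of 0.945 with the groups just apart. The ABCA sums overlapped narrowly at a ratio of 1.12, and the ABCD sums overlapped at a ratio of 0.897. These ratios are given as a description, since a few abundant genes set each sum.

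**Figure D2:**
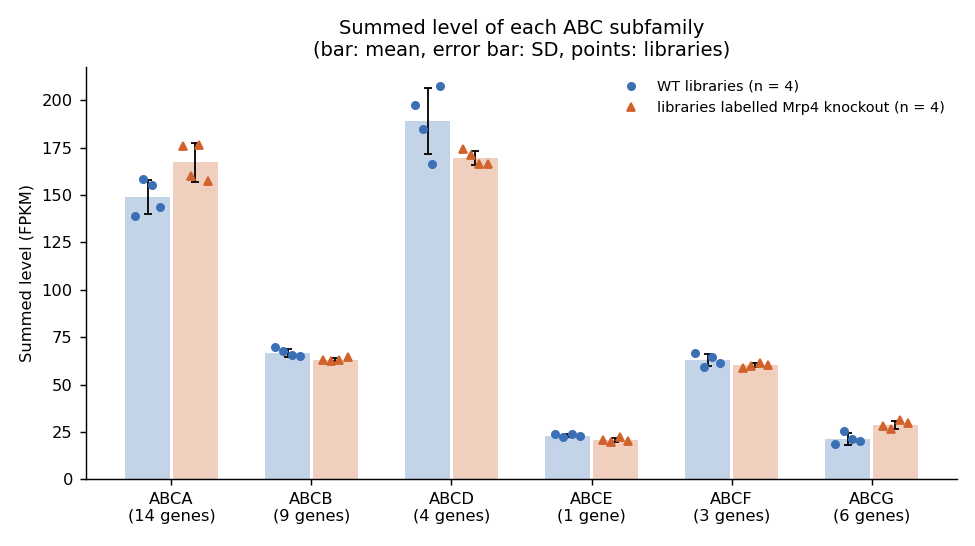
Summed level of each ABC subfamily outside ABCC. The vertical axis is summed FPKM from 0, bars are group means, error bars SD and points the 4 libraries of each group. The ABCG sums do not overlap and have a ratio of 1.35, and the ABCD sum is the highest in both groups.

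**Figure D3:**
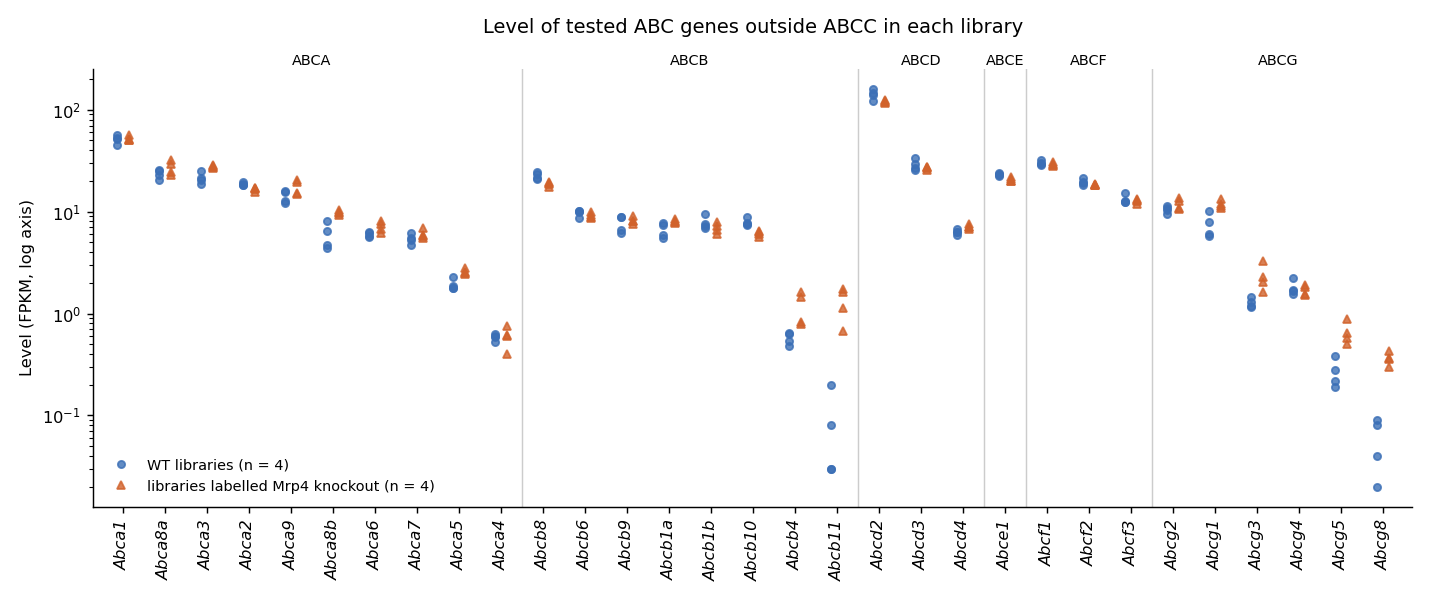
Level of 31 of the tested members in every library on a log axis of FPKM, circles for WT and triangles for the knockout label. Members span from a few hundredths of an FPKM in WT for Abcb11 and Abcg8 to a mean of 141 FPKM for Abcd2.

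The bile and intestinal-type transporters gave the largest differences. Abcb11 encodes the bile salt export pump, Abcb4 a phosphatidylcholine floppase of the bile canaliculus, and Abcg5 and Abcg8 the 2 subunits of the heterodimer that exports plant sterols and cholesterol into bile and gut lumen. All 4 rose, from levels under 1 FPKM in WT. Because they differ most, the start-site regions of the first of them and of the Abcg5 and Abcg8 pair are printed here, from RefSeq on GRCm38.p6, with that of Abca1 as the textbook sterol-responsive gene of the family. All are printed 5′ to 3′ and lie upstream of start sites. Capitals mark the motifs found.
Abcb11, chr2:69342617-69342736, minus strand: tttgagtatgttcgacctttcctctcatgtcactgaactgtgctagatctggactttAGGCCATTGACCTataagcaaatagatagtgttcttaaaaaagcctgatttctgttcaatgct
Abcg5 to Abcg8, chr17:84683012-84683120, plus strand: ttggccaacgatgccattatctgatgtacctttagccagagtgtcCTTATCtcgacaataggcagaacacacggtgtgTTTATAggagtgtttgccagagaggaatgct
Abca1, chr4:53159896-53160015, minus strand: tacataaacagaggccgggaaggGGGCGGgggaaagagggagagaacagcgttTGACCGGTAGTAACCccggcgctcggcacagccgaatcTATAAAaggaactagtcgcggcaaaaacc

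The capitals in Abcb11 are an inverted repeat, AGGNCA followed by TGACCT with 1 base between, whose layout is the one bound by the bile acid receptor FXR with its partner RXR. It begins 63 bases before the start site, and this pattern was found on either strand in 0.0365% of 32851 RefSeq promoter windows of 300 bases and in 1 of 34 windows of members. In Abca1 the long run of capitals is GGTTA followed by GGTCA with 5 bases between, read on the other strand. With the base before each counted as part of it, this is a direct repeat with 4 bases between. That layout is the one bound by the oxysterol receptor LXR with RXR. The run in Abca1 begins 67 bases before the start site, and its pattern occurred in 0.0487% of windows, again in 1 of 34 of the members. The stretch between Abcg5 and Abcg8 is 109 bases long and lies between an annotated start site of each gene, which point away from each other. The annotated spans of the 2 genes overlap. Without stated use of strand, reads from the overlap cannot be told apart. The capitals of the stretch are GATAAG and TATAAA read on the other strand, at its bases 46 and 79. They were found in 7.44% and 13.6% of all windows and in 4 and 7 of the 34 windows of members. Windows of both Abcg5 and Abcg8 hold this stretch, so each of its sites counts more than once among the members. The GC box GGGCGG, marked in Abca1, was in 35.7% of all windows and 17 of 34. A match is a run of letters in a window, and no binding was measured. Of the 37 members 29 had a window in the RefSeq table.

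Abcb11 (gene 27413) was at 0.20, 0.03, 0.08 and 0.03 FPKM in WT and at 0.67, 1.73, 1.64 and 1.13 FPKM under the knockout label. All 4 libraries of the knockout label lay above every WT library, and WT 1 was the highest of its group. These levels rest on 14, 2, 6 and 2 counts in WT and 47, 123, 117 and 77 under the knockout label. The log2 fold change was 3.83 ± 0.52 (SE), a 14.2-fold difference with a 95% interval of 6.30 to 32, and edgeR's adjusted p was 0.00232. It passed in each fit that left out 1 library, with values from 3.53 to 4.65. Abcb11 passed the filter only through the libraries of the knockout label, so its call is a description.

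Abcg8 (gene 67470) was at 0.04, 0.02, 0.09 and 0.08 FPKM in WT and at 0.30, 0.43, 0.36 and 0.37 FPKM under the knockout label, on 12 and 77 counts in all. The groups were well apart and the knockout-label libraries close together. Its log2 fold change was 2.57 ± 0.39, 5.92-fold with a 95% interval of 3.25 to 10.8 (adjusted p = 0.00338), and the call held without any 1 library. The partner Abcg5 (gene 27409) was at 0.28, 0.22, 0.19 and 0.38 FPKM in WT and at 0.50, 0.58, 0.89 and 0.64 FPKM under the knockout label. Every knockout-label library again lay above every WT library, by a smaller factor. Abcg8 and Abcg5 both passed the filter only through the libraries of the knockout label, so their calls are a description. The log2 fold change of Abcg5 was 1.22 ± 0.32, 2.33-fold (adjusted p = 0.029), and its call ended without WT 1, WT 3, knockout label 4 or knockout label 5 (1.04 to 1.45 over all 8 such fits). Abcg5 made up 67.9 to 91.7% of the pair's summed FPKM in WT and 57.4 to 71.2% under the knockout label, ranges that overlap. In WT the share rests on only 9, 7, 6 and 12 counts of Abcg5 and 2, 1, 5 and 4 of Abcg8. This share was chosen after its values were seen and was not tested.

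Abcb4 (gene 18670) was at 0.54, 0.64, 0.63 and 0.48 FPKM in WT and at 0.82, 1.44, 1.63 and 0.79 FPKM under the knockout label. The groups did not overlap, and knockout label 2 and 4 lay well above the other libraries of that label. Its log2 fold change was 0.96 ± 0.26, 1.95-fold (adjusted p = 0.0347). The call ended without WT 1, WT 3, WT 4, knockout label 2 or knockout label 4 (0.76 to 1.11 over all 8 such fits), and with limma-voom in place of edgeR (0.89, adjusted p = 0.056).

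The hepatocyte markers were higher under the knockout label, as these 4 genes were. Alb, the most abundant protein of plasma, was at 40.1, 23.1, 23.5 and 17.5 FPKM in WT and at 310, 553, 509 and 496 FPKM under the knockout label. Under the knockout label the hepatocyte sum was 895, 1600, 1530 and 1210 FPKM, which puts the libraries in the same order as Abcb11. In WT both were highest in WT 1. Abcg5 and Abcb4 did not keep this order. Under the knockout label Abcg8 departed from it only between libraries 4 and 5, at 0.36 and 0.37 FPKM and 19 counts in each. Under the knockout label Abcg8 was highest in library 2, as the sum was, and Abcg5 and Abcb4 in library 4. In WT Abcg8 was highest in WT 3, Abcg5 in WT 4 and Abcb4 in WT 2. These WT orders rest on 1 to 5 counts of Abcg8, 6 to 12 of Abcg5 and 28 to 37 of Abcb4 per library. The markers of kidney, another source of such transporters, summed to 2.99 to 6.71 FPKM in WT and 2.43 to 4.05 FPKM under the knockout label, and those of intestine to 10.2 to 15.5 and 12.7 to 15.9 FPKM, with 1 of 2 tested intestine markers called higher. Pancreas markers summed to 6.65 to 8.58 FPKM in WT and 11.4 to 20.2 FPKM under the knockout label, nearly all of it Cela1, the 1 gene of that list tested. The part of the hepatocyte RNA in the rise of Abcb11, Abcb4, Abcg5 and Abcg8 was not tested.

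**Figure D4:**
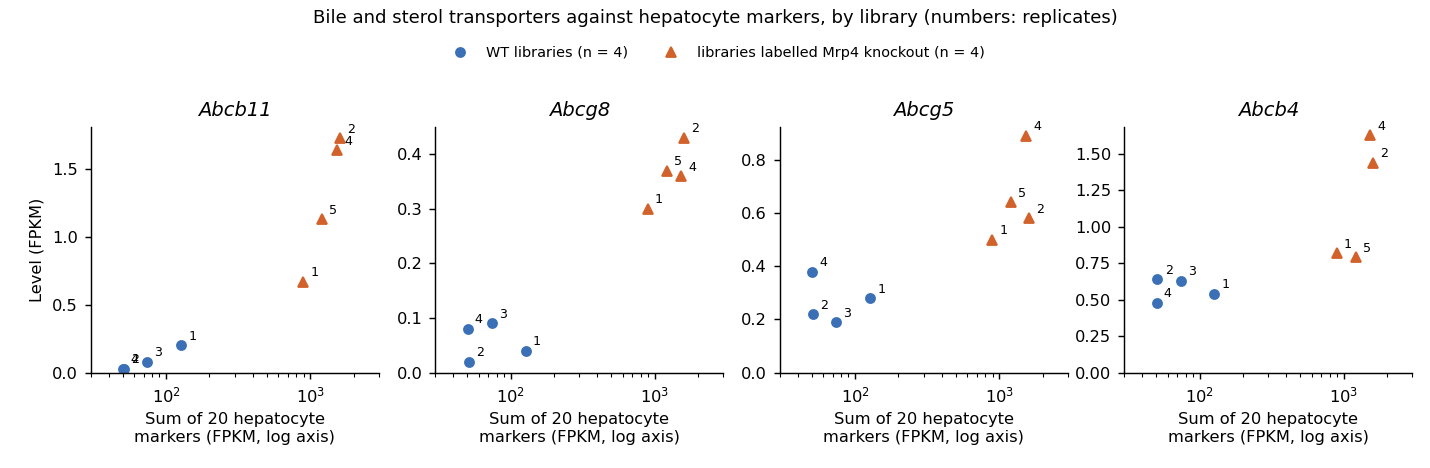
Level of Abcb11, Abcg8, Abcg5 and Abcb4 in FPKM against the summed FPKM of 20 hepatocyte markers on a log axis, with replicate numbers beside the points. WT libraries lie between 50.4 and 127 FPKM on the horizontal axis and those of the knockout label between 895 and 1600 FPKM. Within the knockout label Abcb11 keeps the order of the sum, and Abcg5 and Abcb4 do not. Abcg8 departs from it only between libraries 4 and 5, at 0.36 and 0.37 FPKM.

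Other genes of bile acid transport and conjugation moved the same way. Of 14 genes in this list 12 were tested. Of these 8 rose and 0 fell, beside 10.2% of all tested genes called higher and 8.05% lower. Their median log2 fold change was 2.71. Baat, which joins bile acids to taurine or glycine, was at a mean of 0.0725 FPKM in WT and 1.70 FPKM under the knockout label (log2 fold change 4.42, adjusted p = 0.000279). Slco1b2, a hepatic uptake carrier, stood at 0.113 and 3.23 FPKM (4.76, adjusted p = 0.000427). The export pump Abcc2 had means of 0.0975 and 1.05 FPKM (3.35, adjusted p = 0.000992), and the bile acid ligase Slc27a5 means of 0.383 and 4.52 FPKM (3.47, adjusted p = 0.00184). These are mainly genes of hepatocytes, whose markers moved with the label as given above. Abcc2 had 30 counts in WT in all, and as few as 3 in a library, so it passed the filter only through the libraries of the knockout label. Others barely detected in WT, such as Baat, may have passed in the same way. The count is therefore a description.

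Among the sterol transporters expressed in fat, Abcg1 rose while Abca1 did not pass. Abcg1 (gene 11307), which passes cholesterol to high density lipoprotein, was at 5.78, 10.2, 7.90 and 6.00 FPKM in WT and at 11.4, 10.9, 13.4 and 11.8 FPKM under the knockout label. The groups were apart, but WT 2 came within 1 FPKM of the lowest knockout-label library. Abcg1 had a log2 fold change of 0.61 ± 0.16, 1.52-fold (adjusted p = 0.0341), and the call held in only 1 of the 8 fits that left out a library, the one without WT 2 (0.50 to 0.78 over all 8). Abca1 (gene 11303), which loads cholesterol and phospholipid onto apolipoprotein A-I, was the second most abundant member, at 45.1, 51.7, 52.6 and 56.4 FPKM in WT and 51.8, 50.4, 56.1 and 49.9 FPKM under the knockout label. These ranges lay on top of each other, with a log2 fold change of -0.05 ± 0.09 (95% interval -0.25 to 0.15; adjusted p = 0.726). Abcg4, the close relative of Abcg1, had means of 1.79 ± 0.311 and 1.7 ± 0.184 FPKM (SD, n = 4) and did not pass. The summed endothelial and macrophage markers were higher under the knockout label, as Abcg1 was, though the macrophage sums overlapped. The part of these cells in the rise of Abcg1 was not tested.

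The wider list of sterol efflux genes had no single direction. Of 22 tested, 4 rose and 4 fell (36.4% called, beside 18.3% of all tested genes), with a median log2 fold change of 0.10. Lipa, the lysosomal acid lipase that frees cholesterol from its esters, rose from a mean of 31 to 47.1 FPKM (0.54, adjusted p = 0.00567), as did the neutral cholesterol ester hydrolase Nceh1, from 2.85 to 4.51 FPKM (0.59, adjusted p = 0.00836). The lipogenic factor Srebf1 fell from 146 to 70.5 FPKM (-1.12, adjusted p = 0.00702). Lpcat3, which remodels phospholipids, fell from 46.2 to 33 FPKM (-0.55, adjusted p = 0.0164). Srebf1 and Lpcat3 are textbook LXR targets like Abca1 and Abcg1, and a part of LXR in these differences was not tested.

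Abcg3 and Abcg2 complete the ABCG subfamily. Abcg3 (gene 27405), a rodent gene related to Abcg2 whose substrate is not established, was at 1.31, 1.44, 1.19 and 1.17 FPKM in WT and at 3.27, 2.28, 2.03 and 1.62 FPKM under the knockout label. No library of 1 label fell inside the range of the other, although knockout label 5 was close to WT 2. Its log2 fold change was 0.78 ± 0.21, 1.72-fold (adjusted p = 0.0314), and the call held without WT 2 or knockout label 5 and ended in the other 6 such fits (0.57 to 0.91 over all 8). Abcg2 (gene 26357), the breast cancer resistance protein that exports drugs and urate, was at 9.56, 11.2, 10.3 and 10.8 FPKM in WT and 10.7, 10.8, 12.7 and 13.7 FPKM under the knockout label. The ranges overlapped and the difference of 0.13 ± 0.10 did not pass (adjusted p = 0.404).

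In ABCA, the members that rose were Abca8b, Abca5 and Abca3. Abca8b (gene 27404), 1 of a cluster of 5 neighbouring members on chromosome 11 in the order Abca8b, Abca8a, Abca9, Abca6, Abca5, was at 4.66, 8.17, 6.39 and 4.38 FPKM in WT and at 10.4, 9.19, 9.63 and 9.85 FPKM under the knockout label. The groups did not overlap, with WT 2 nearest to the other label, as for Abcg1. Abca8b had a log2 fold change of 0.66 ± 0.17, 1.58-fold (adjusted p = 0.0285), and the call held without WT 2 or knockout label 2 and ended in the other 6 such fits (0.55 to 0.85 over all 8).

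Abca5 (gene 217265), a lysosomal and endosomal member at the other end of the cluster, was at 1.87, 2.26, 1.79 and 1.78 FPKM in WT and at 2.48, 2.77, 2.42 and 2.56 FPKM under the knockout label. The groups were apart, WT 2 again being the highest of WT. With a log2 fold change of 0.34 ± 0.09 (adjusted p = 0.0336), Abca5 was called, and the call held only in the fit without WT 2 among the 8 (0.31 to 0.41). The 3 genes between them did not pass. Abca8a (gene 217258) was at 23.1, 25.4, 25.3 and 20.6 FPKM in WT and 32.4, 24.8, 29.5 and 23.0 FPKM under the knockout label, which overlap (0.15 ± 0.11, adjusted p = 0.345). Abca9 had means of 14.1 ± 1.84 and 17.4 ± 2.9 FPKM (adjusted p = 0.189), and Abca6 of 5.96 ± 0.302 and 7.1 ± 0.857 FPKM (adjusted p = 0.138). All 5 genes of the cluster had positive estimates, from 0.15 to 0.66, beside 7063 of all 14257 tested genes. In the GENCODE transcripts Abca8a and Abca8b share no stretch of 100 bases, the read length.

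Abca3 (gene 27410), known from lung as the transporter that fills lamellar bodies with surfactant lipid, was at 20.5, 25.1, 21.2 and 18.7 FPKM in WT and at 27.1, 28.9, 28.2 and 26.6 FPKM under the knockout label. The ranges were apart by a small margin set by WT 2. Abca3 had a log2 fold change of 0.31 ± 0.08 (adjusted p = 0.0316), and only the fit without WT 2 kept the call among the 8 (0.26 to 0.38). Abca3 lies head to head with Abca17, with annotated start sites 963 bases apart in GRCm38.p6, and their annotated spans overlap. Abca17 had 2 counts in WT and 7 under the knockout label. Abca2 (gene 11305), an endolysosomal lipid transporter best known from brain, went the other way, at 19.5, 18.2, 18.9 and 18.2 FPKM in WT and 17, 16.5, 15.7 and 17 FPKM under the knockout label. Each group was tight and they did not overlap.

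The log2 fold change of Abca2 was -0.24 ± 0.06 (adjusted p = 0.0237). Its call held without WT 2 or knockout label 5 and ended in the other 6 such fits (-0.27 to -0.22 over all 8), with library size alone as scaling (-0.17, adjusted p = 0.0603) and with limma on log2(FPKM + 1) (-0.17, adjusted p = 0.06) or log2(FPKM + 0.1) (-0.18, adjusted p = 0.0599). Abca7, a phospholipid transporter, had means of 5.42 ± 0.611 and 6.04 ± 0.64 FPKM (adjusted p = 0.518), and the retinal transporter Abca4 means of 0.587 ± 0.0419 and 0.593 ± 0.148 FPKM (adjusted p = 0.895).

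The mitochondrial members all had negative estimates, and 2 of the 4 fell. Over all 14257 tested genes 7194 had negative estimates and 8.05% were called lower, so this is a description. Abcb10 (gene 56199), an inner membrane protein linked to haem synthesis, was at 8.91, 7.60, 7.45 and 7.81 FPKM in WT and at 6.03, 6.34, 5.67 and 6.47 FPKM under the knockout label. Each WT library was above each knockout-label library. Its log2 fold change was -0.44 ± 0.08 (adjusted p = 0.00962), with calls in each of the 8 fits that left out a library (-0.48 to -0.38). Abcb8 (gene 74610), a subunit of the mitochondrial ATP-sensitive potassium channel, was at 24.3, 21.3, 20.8 and 23.2 FPKM in WT and 19.1, 18.5, 17.4 and 19.5 FPKM under the knockout label. These groups were apart too. The log2 fold change of Abcb8 was -0.33 ± 0.08 (adjusted p = 0.0198), and its call ended without WT 4 or knockout label 4 (-0.37 to -0.29 over all 8). Without stated use of strand, reads of Abcb8 cannot be told from those of Cdk5, which overlaps it in the GRCm38.p6 annotation.

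Abcb6 (gene 74104), a porphyrin transporter, was at 10.1, 9.85, 8.74 and 10.1 FPKM in WT and at 8.67, 9.17, 8.80 and 9.99 FPKM under the knockout label. Its groups overlapped, and it did not pass (-0.15 ± 0.08, adjusted p = 0.231). In the GENCODE transcripts 84.4% of the 100-base stretches of Abcb6 also lie in the readthrough gene Gm29253, so its counts are uncertain.

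Of 28 genes of haem and iron-sulfur cluster synthesis 0 rose and 6 fell, with a median log2 fold change of -0.09. That is 21.4% called, near the 18.3% of all tested genes. Alad, the second enzyme of haem synthesis, fell from a mean of 18.7 to 11.6 FPKM (-0.75, adjusted p = 0.0105). The iron-regulatory protein and aconitase Aco1 fell from 75.7 to 48.8 FPKM (-0.70, adjusted p = 0.00637). Isca1, which assembles mitochondrial iron-sulfur clusters, fell from 84.4 to 68 FPKM (-0.38, adjusted p = 0.00686). The summed adipocyte markers were lower under the knockout label as well, although 3 of the 10 were called lower and 1 higher, and their part in the fall of Abcb8 and Abcb10 was not tested.

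Among the peroxisomal transporters, which carry fatty acyl groups into the organelle, none passed. Abcd2 (gene 26874), the very long chain fatty acid transporter known to be abundant in adipocytes, was the most abundant member and held 25.7% of the members' FPKM. It was at 146, 139, 122 and 159 FPKM in WT and 124, 123, 117 and 119 FPKM under the knockout label. WT 3 lay among the knockout-label libraries and the other WT libraries above them. The log2 fold change was -0.29 ± 0.10 (95% interval -0.51 to -0.07; adjusted p = 0.0658), and it passed without WT 3 (-0.36, adjusted p = 0.0468) and with DESeq2 (-0.29, adjusted p = 0.0139).

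Abcd3 (gene 19299), which takes up branched chain acyl groups and bile acid precursors, was at 33.4, 25.8, 27.0 and 29.4 FPKM in WT and 26.5, 25.4, 27.4 and 27.7 FPKM under the knockout label. The ranges overlapped (-0.18 ± 0.09, adjusted p = 0.189).

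The list of peroxisome and very long chain fatty acid genes was mixed, with 5 of 26 tested higher, 4 lower and a median log2 fold change of -0.12. That is 34.6% called, beside 18.3% of all tested genes. Slc27a2, an acyl-CoA synthetase abundant in liver, rose from a mean of 0.375 to 7.01 FPKM (4.15, adjusted p = 0.000532). Slc27a2 and Acox2, another of the 5, had 49 and 16 counts in WT in all, and as few as 8 and 0 in a library. Both passed the filter only through the libraries of the knockout label, so their calls and the share of the list are a description. The thiolase gene Acaa1b rose from 24.8 to 50.5 FPKM (0.97, adjusted p = 0.00192), and Crot, which makes acylcarnitines for export from peroxisomes, from 15 to 20.8 FPKM (0.41, adjusted p = 0.0031). The acetyltransferase gene Crat fell from 94.1 to 69.7 FPKM (-0.50, adjusted p = 0.00762).

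The lysosomal members did not pass. Abcd4, which despite its name releases cobalamin (vitamin B12) from lysosomes, was at 6.32 ± 0.297 FPKM in WT and 7.11 ± 0.365 FPKM under the knockout label. Its ranges did not overlap, yet its log2 fold change of 0.10 ± 0.08 did not pass (adjusted p = 0.377). Over all tested genes 23.5% had ranges of FPKM that did not overlap, 16.4% with the knockout label higher and 7.08% lower. Of 10 cobalamin genes 0 rose and 2 fell, Mtrr from 4.55 to 3.96 FPKM (-0.26, adjusted p = 0.039) and Mmachc from 18.7 to 15.4 FPKM (-0.34, adjusted p = 0.0455). Abcb9 (gene 56325), a lysosomal peptide transporter, was at 8.81, 8.76, 6.56 and 6.14 FPKM in WT and 8.04, 7.55, 8.01 and 9.09 FPKM under the knockout label. WT split into a higher and a lower pair that enclosed most of the other group (0.05 ± 0.13, adjusted p = 0.825). Its relatives Tap1 and Tap2, which carry peptides to MHC class I, had means of 13.2 and 14.6 FPKM and of 34.2 and 31.7 FPKM. Of the 11 genes of the peptide loading list 0 passed in edgeR, DESeq2 or limma-voom, beside 18.3% of all tested genes called in edgeR. In that list 1 gene in each direction had an unadjusted p under 0.05 in edgeR.

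The members that act on ribosomes also had negative estimates in all 4 cases, and 1 fell. This too is a description, beside 7194 of 14257 tested genes with negative estimates and 8.05% called lower. Abce1 (gene 24015), which splits ribosomes after termination, was at 23.8, 22.3, 23.7 and 22.7 FPKM in WT and at 20.9, 19.8, 22.1 and 20.1 FPKM under the knockout label. The groups were apart by a narrow gap, between WT 2 and knockout label 4. Its log2 fold change was -0.22 ± 0.06 (adjusted p = 0.0331). The call held without WT 2 or knockout label 4 and ended in the other 6 such fits (-0.26 to -0.20 over all 8), with library size alone (-0.16, adjusted p = 0.0897) and with limma on log2(FPKM + 1) (-0.15, adjusted p = 0.0895) or log2(FPKM + 0.1) (-0.16, adjusted p = 0.0891). Abce1 overlaps Anapc10 in the annotation.

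The ABCF genes lay close together in both groups. Abcf1 (gene 224742), which binds the initiation factor eIF2, was at 29.7, 28.5, 32.2 and 30.01 FPKM in WT and 29.0, 28.9, 30.5 and 28.3 FPKM under the knockout label (-0.11 ± 0.06, adjusted p = 0.22). Abcf2 (gene 27407) was at 21.6, 18.3, 19.5 and 19.1 FPKM in WT and 18.1, 18.3, 18.4 and 18.8 FPKM under the knockout label (-0.16 ± 0.07, adjusted p = 0.143). Abcf3 (gene 27406) was at 15.2, 12.6, 12.7 and 12.3 FPKM in WT and 11.8, 12.9, 12.7 and 13.2 FPKM under the knockout label (-0.12 ± 0.08, adjusted p = 0.32). All 3 overlapped between the labels, and WT 1 was the highest library for Abcf2 and Abcf3. Of 19 genes of termination, recycling and initiation 0 rose and 1 fell, the ribosome collision sensor Zfp598, from 30.7 to 23.4 FPKM (-0.46, adjusted p = 0.00782). That is 5.26% called, beside 18.3% of all tested genes.

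**Figure D5:**
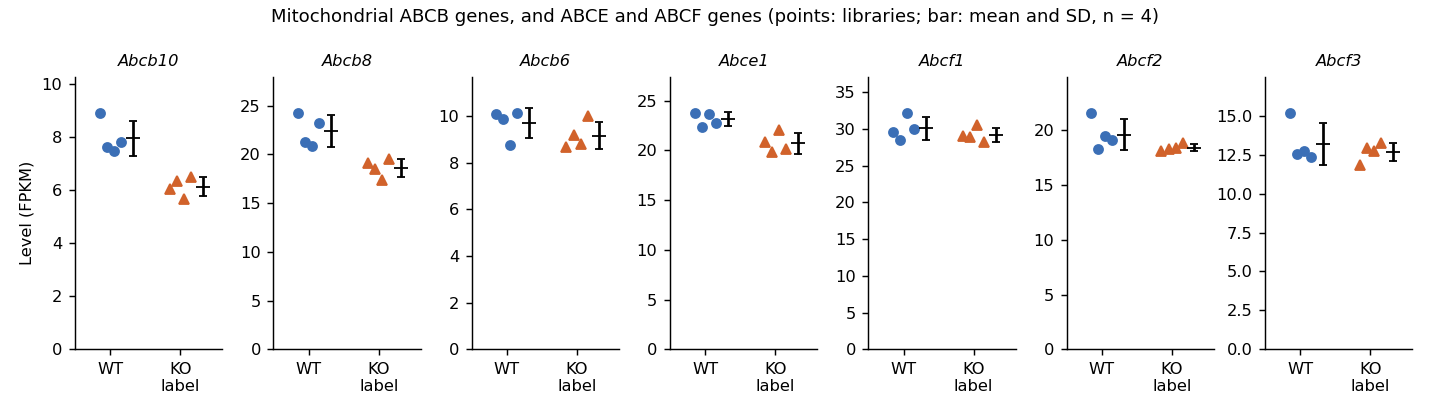
Level in FPKM of Abcb10, Abcb8 and Abcb6 and of the ABCE and ABCF genes. Points are libraries and black bars mean and SD (n = 4), each axis starting at 0. Abcb10, Abcb8 and Abce1 are lower under the knockout label without overlap, and the other 4 genes overlap between the groups.

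The drug efflux members, Abcg2 among them, did not pass in edgeR, DESeq2 or limma-voom, and 0 of the 3 had an unadjusted p under 0.05. Abcb1a and Abcb1b, which encode the 2 rodent forms of P-glycoprotein and lie next to each other and to Abcb4 on chromosome 5, had estimates of opposite sign. Abcb1a was at 6.67 ± 1.07 FPKM in WT and 8.06 ± 0.293 FPKM under the knockout label (0.21 ± 0.10, adjusted p = 0.165), and Abcb1b at 7.8 ± 1.17 and 6.93 ± 0.804 FPKM (-0.24 ± 0.11, adjusted p = 0.166). The sum of both differed little, while Abcb1a made up 44.7, 50.5, 43.7 and 45.3% of it in WT and 53.9, 54.0, 50.2 and 57.5% under the knockout label. WT 2 was the 1 WT library within the range of the other label. This share was picked after its values were seen and was not tested. Of their 100-base stretches 7.72% of Abcb1a and 8.52% of Abcb1b are shared with a neighbour, mostly each other, and their deposited counts are not all whole, so the split between the copies is an estimate. Endothelial markers, another site of Abcb1a, moved with the label as given above, and their part was not tested.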

How the data were processed

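Polyadenylated RNA of 8 libraries (4 per label) was sequenced with paired reads of 100 bases, per the labels' protocols. The submitters' processing notes name the build mm9 and the tool Bowtie2; no version of it and no quantifier is given in the sources used here. Each library's file, as deposited by the authors, holds expected counts (estimates that need not be whole) and FPKM values per gene, per the file headers. A gene not listed in a library was taken as 0.

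Expected counts, once rounded, went into edgeR 4.0.16 (R 4.3.3; filterByExpr by genotype, which removed 4434 genes; TMM factors; glmQLFit with robust=TRUE; glmQLFTest, two-sided; genotype alone). The SE is the log2 fold change divided by the square root of F. TMM puts a fitted log2 fold change 0.07 below the FPKM ratio on average. Reads carried no molecular identifiers, and no use of strand is stated. Scripts were tested on simulated data.

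Members, gene lists and tests were chosen with earlier results of these data known. Values in every library are given for each member with an adjusted p under 0.05 and for the 3 most abundant members of each subfamily; members with a mean of at least 1 FPKM and the rest are given by means, ranges or counts; partner lists show up to 4 genes with the lowest p and a mean of at least 1 FPKM in either group. Alternatives were other scalings (DESeq2 1.42.0 size factors, library size, upper quartile), 2 other filters, DESeq2, limma-voom and limma 3.58.1 on log2 FPKM, other thresholds, a replicate block and fits without each library. Promoters were matched by gene identifier to RefSeq GRCm38.p6 and shared stretches counted in GENCODE transcripts of that assembly. No coordinates are given for mm9. Some genes that the rule names are not reported here.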

Additional observations from a re-analysis of the deposited data

Results flagged for a closer look

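In 60 groups of 4 libraries checked for a library far from the other 3, of which chance alone would give about 1 in 20, 1 had one. Abcf3 in WT replicate 1 was the highest of WT at 15.2 FPKM, with the others at 12.3 to 12.7 FPKM. Abcf3 was not called in edgeR.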

How the results depend on the processing

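Of 432 values of 24 named members under other settings, 354 stayed on the same side of the threshold, 76 lost the call and 2 gained one. The sign changed in 8 of them, 4 of Abca1 and 4 of Abcb9, and 0 of these had a call in either fit. Abcc4 ran from -0.09 to 0.04 and was called in none of its fits. Of the counts, summed ratios and Abcc4, 192 values stayed within their limits and 66 moved. With the threshold at 0.01, 551 of all genes were called (2606 at 0.05), 2 members were higher and 1 lower, with 0 ABCA, 2 ABCB, 0 ABCE and 1 ABCG; at 0.1, 4178 genes and 1 ABCD gene were called. Members called lower were 2 with library size alone, 2 with limma on log2(FPKM + 1) and 2 on log2(FPKM + 0.1), each with 0 ABCE genes. DESeq2 called 1 ABCD gene. Divided by the TMM factor, the ABCB ratio was 0.902. Without 1 library, 1172 to 3683 genes were called, members higher ran from 2 to 9 and lower from 1 to 5, ABCA from 0 to 4, ABCB from 2 to 5, ABCD from 0 to 1, ABCE from 0 to 1 and ABCG from 1 to 4. These fits hold fewer samples, and the cause of the other changes was not tested.

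The replicate numbers of the titles are shared for 1, 2 and 4, and deviations of same-numbered libraries from their group means correlated at 0.011, -0.075 and -0.13, so the numbers are not taken to pair the libraries. With the replicate block, 141 genes were called, 0 members higher and 0 lower (ABCA 0, ABCB 0, ABCE 0, ABCG 0). Depth limits the rarest members most, as Abcg8 had 12 counts in WT in all.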
